A study of Mus musculus with 18 samples.

Results

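Macrophages of the brain surface and macrophages of the brain tissue that both came from transplanted bone marrow, and that both lacked the label of the monocyte lineage, were compared across all measured genes. The 6 libraries are the whole of both groups: 2 of leptomeningeal macrophages derived from haematopoietic stem cells (HSC) and 4 of HSC-derived microglia, out of 18 libraries in the series. Irradiated wild-type C57BL6 mice received marrow with 3 alleles: Ms4a3-Cre, R26-TdTomato, which reports Cre activity, and Cx3cr1-gfp. Cells were sorted 32 weeks after transplantation, at most 100000 per library, and sequenced by bulk MARS-seq, a method that counts 3′ ends of polyadenylated transcripts with unique molecular identifiers (UMIs). The HSC-derived groups hold cells with GFP and without TdTomato, so that their origin rests on the absence of a colour. Ms4a3-Cre is active in granulocyte-monocyte progenitors, and a monocyte-derived cell in which it did not recombine would fall into the same gate. A monocyte-derived pair of groups, with both colours, had 4 libraries of leptomeningeal macrophages and 4 of microglia and serves as the nearest comparison. Host microglia without either colour had 4 libraries. All donor cells of both compartments carried the Cx3cr1-gfp allele, whose zygosity is not given in the sources used here, and all preparations contained actinomycin D, which blocks transcription.

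The groups differ in the site and in the preparation of the cells. Leptomeningeal cells were rinsed from the outer face of whole brains after a collagenase digestion, whereas microglia came from the same kind of brains after a further enzymatic digestion, pipetting and a Percoll step. Compartment and preparation therefore cannot be told apart in any value below. The sort could not be checked on the labels themselves, since the table has 0 rows for Gfp, TdTomato and Ms4a3. The labels do not say that replicates came from separate mice. The p-values measure only the spread between libraries, estimated over all 18 libraries of the series.

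Macrophages of the leptomeninges, the thin membranes that enclose the brain, belong to the border-associated macrophages. They are known for endocytic receptors such as the mannose receptor and the hyaluronan receptor LYVE1, for CD163, and for their contact with cerebrospinal fluid and blood vessels. Microglia live inside the nerve tissue, where TGF-beta signalling and the transcription factor SALL1 maintain a gene programme that includes purinergic and fractalkine receptors. After irradiation, cells of bone marrow origin can settle in both places and take on part of the local programme.

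The libraries were of unequal depth. Total UMI counts were 648266 and 154727 in HSC leptomeningeal macrophages, against 691691, 692884, 264795 and 317872 in HSC microglia. Throughout, values are TMM-scaled CPM (counts per 1e6 counts) in replicate order, and 3 counts correspond to 5.15 and 23.1 CPM in HSC leptomeningeal macrophages, against 4.25, 4.12, 15.4 and 11.7 CPM in HSC microglia. The 3 shallow libraries, leptomeningeal replicate 2 and microglia replicates 3 and 4, stood apart from the deeper ones of their groups. Ribosomal protein genes took 15% and 18.9% of the counts in HSC leptomeningeal macrophages, against 8.59%, 8.78%, 14% and 13.3% in HSC microglia. The transcription factor gene Nhlh2 had 0 and 1631 counts in HSC leptomeningeal macrophages, against 1, 1, 2862 and 4513 in HSC microglia, so it was near 0 in the 3 deeper libraries and abundant in the 3 shallow ones. For many gene lists and some genes, results that rest on the shallow libraries, or on replicate 1 as the only deeper leptomeningeal library, are given with and without them. Other named genes also lost their call without leptomeningeal replicate 1, Fcgr2b, Ctse, Igfbp2, Npnt, Hspa1b, Col27a1 and Serpine2 among them.

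Of 10597 genes tested with edgeR's quasi-likelihood test, 1030 (9.72%) passed an adjusted p of 0.05 and are called. In HSC leptomeningeal macrophages 609 genes were higher (5.75% of all tested) and 421 were lower (3.97%) than in HSC microglia. The median log2 fold change was 1.63 over the genes called higher and -1.40 over the genes called lower, and -0.06 over all tested genes. For 492 of the genes called higher, both leptomeningeal libraries lay above all 4 microglia libraries, an order that 10.5% of all tested genes showed. For 372 of the genes called lower, both lay below all 4, as 10.9% of all tested genes did. Differences of over 8-fold numbered 105 among the genes called higher and 48 among those called lower. The count of called genes was 835 without the shallow leptomeningeal library and 1460 without all 3 shallow libraries. It was 366 without the deeper leptomeningeal library, replicate 1, where the median over all tested genes moved to -0.39. It was 273 without the 3 deeper HSC-derived libraries. With only the 6 HSC-derived libraries in the fit, 205 of 6818 tested genes were called. The fits without the 3 shallow and without the 3 deeper HSC-derived libraries each left a single leptomeningeal library. All monocyte-derived and host libraries stayed in these fits by depth, so the spread was estimated with them. The sign was kept in both fits by depth for 983 of the 1030 called genes, all of which had been called on these same libraries.

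**Figure D1:**
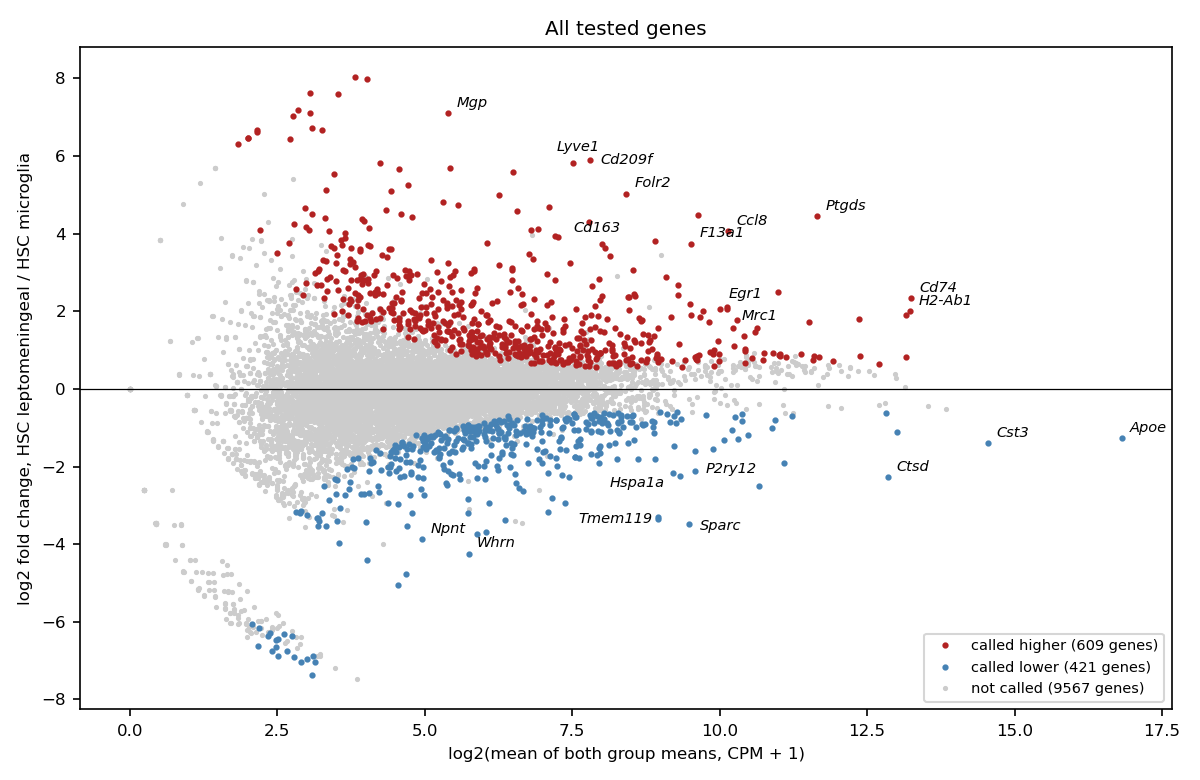
Each of the 10597 tested genes is a point, with its mean level over both groups (log2 of CPM + 1) on the horizontal axis and the log2 fold change of HSC leptomeningeal macrophages over HSC microglia on the vertical axis. The 609 genes called higher (red) include Lyve1, Cd209f and Folr2, and the 421 called lower (blue) include Tmem119, Sparc and Whrn.

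The leptomeningeal macrophages carried the markers of their compartment. Lyve1, which encodes a hyaluronan receptor and lies on chromosome 7 (mm10, chr7:110850607-110863239, minus strand), had 515 and 200.3 CPM in HSC leptomeningeal macrophages, against 7.08, 6.87, 0 and 11.7 CPM in HSC microglia. Cd209f, a gene of the DC-SIGN family of sugar-binding receptors (chr8:4102787-4105835, minus strand), had 548 and 316 CPM in HSC leptomeningeal macrophages, against 7.08, 4.12, 20.5 and 7.83 CPM in HSC microglia. Both genes sat at or near the limit of detection in microglia and far above it in both leptomeningeal libraries. Lyve1 had a log2 fold change of 5.82 (SE 0.43, adjusted p = 3.39e-08) and Cd209f a log2 fold change of 5.90 (SE 0.36, adjusted p = 7.07e-12), both by edgeR. Folr2, the gene of the folate receptor beta (chr7:101839988-101857194), had 656 and 662 CPM in HSC leptomeningeal macrophages, against 21.3, 13.7, 41.0 and 15.7 CPM in HSC microglia, with a log2 fold change of 5.04 (SE 0.26, adjusted p = 4.66e-16). Mrc1, the mannose receptor gene (chr2:14229392-14332057, plus strand), was also plainly present in microglia. It had 2195 and 1386 CPM in HSC leptomeningeal macrophages, against 660.3, 581, 538 and 646 CPM in HSC microglia, and the groups did not overlap at a log2 fold change of 1.57 (SE 0.18, adjusted p = 1.23e-07).

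Most other listed markers of border macrophages rose with them. Of 34 such genes on the list 33 were tested; 24 were called higher and 0 lower, with a median log2 fold change of 3.09. F13a1, which encodes the A chain of coagulation factor XIII, had 1494 and 1217 CPM in HSC leptomeningeal macrophages, against 93.5, 93.4, 92.2 and 137 CPM in HSC microglia. Cd163, the receptor that takes up haemoglobin bound to haptoglobin, had 685 and 262 CPM in HSC leptomeningeal macrophages, against 52.4, 30.2, 51.2 and 19.6 CPM in HSC microglia. Pf4, a platelet-type chemokine that border macrophages also make, had 3791 and 3066 CPM in HSC leptomeningeal macrophages, against 463, 438, 830.1 and 751 CPM in HSC microglia. In these 3 genes both leptomeningeal libraries lay above every microglia library, and the log2 fold changes were 3.74, 3.72 and 2.50. Gas6, a bridging ligand of the TAM receptors, had 639 and 624 CPM in HSC leptomeningeal macrophages, against 112, 113, 108 and 160.5 CPM in HSC microglia (log2 fold change 2.38, adjusted p = 7.07e-12). Clec10a, a galactose-binding lectin gene, had 557 and 277 CPM in HSC leptomeningeal macrophages, against 25.5, 24.7, 20.5 and 11.7 CPM in HSC microglia (log2 fold change 4.31, adjusted p = 3.55e-12). Ms4a7, a membrane protein gene often used to mark border macrophages, had the opposite direction. It had 534 and 647 CPM in HSC leptomeningeal macrophages, against 754, 768, 999 and 1018 CPM in HSC microglia, with both leptomeningeal libraries below all microglia libraries, and a log2 fold change of -0.59 (SE 0.24, adjusted p = 0.125) that did not pass by edgeR. Under 3 of 27 alternatives it was called lower, by DESeq2, with a term for shallow libraries, and with that term and the replicate block; its adjusted p ranged between 0.0217 and 0.507 over all 27. Without the 3 deeper libraries 15 of the 33 genes were still called higher, and without the 3 shallow ones 27 were.

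Cd209f and Cd209g are neighbours on chromosome 8 and had the same pattern. Cd209g (chr8:4134098-4137707, plus strand) had 175 and 116 CPM in HSC leptomeningeal macrophages, against 2.83, 6.87, 5.12 and 3.91 CPM in HSC microglia, a log2 fold change of 5.01 (SE 0.36, adjusted p = 1.41e-11). Over the last 500 bases of their transcripts the longest run of letters that both share is 29 bases, so the split of 3′ reads between them is uncertain, although both counted in the same direction. Their promoter windows, from 250 bases before to 50 after the RefSeq start site (GRCm38.p6), are shown because they share an unbroken run of 180 bases. That run holds the AP-1 motif TGANTCA, searched on both strands and printed in capitals, at -83 from the start of Cd209f and at -97 from that of Cd209g; of all 32851 windows in the table, 7.81% hold this motif. The windows are chr8:4105715-4106014 (minus strand) and chr8:4134486-4134785 (plus strand).
Cd209f: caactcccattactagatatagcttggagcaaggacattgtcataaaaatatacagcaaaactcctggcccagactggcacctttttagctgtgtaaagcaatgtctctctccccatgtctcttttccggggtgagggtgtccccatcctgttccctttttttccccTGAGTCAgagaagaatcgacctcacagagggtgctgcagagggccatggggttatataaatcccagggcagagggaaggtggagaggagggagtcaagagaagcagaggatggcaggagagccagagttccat
Cd209g: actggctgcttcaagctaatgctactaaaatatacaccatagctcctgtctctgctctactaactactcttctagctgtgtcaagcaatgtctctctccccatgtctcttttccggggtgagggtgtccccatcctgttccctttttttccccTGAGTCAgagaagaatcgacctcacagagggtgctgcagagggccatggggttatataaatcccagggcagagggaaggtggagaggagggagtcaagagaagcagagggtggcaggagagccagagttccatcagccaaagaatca
Of 28 windows belonging to genes of the border macrophage list, 4 (14.3%) hold that AP-1 motif, 1 each of Cd209f, Cd209g, Folr2 and Ms4a7. The list of resting microglia genes has a like share, 4 of 32 windows (12.5%), and the windows of tested genes 5.05%. The shorter MAF core TGCTGA stands in 11 (39.3%) of the border windows and in 5 (15.6%) of the resting microglia windows. It stands in 19.5% of all windows and 14.9% of the windows of tested genes.

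**Figure D2:**
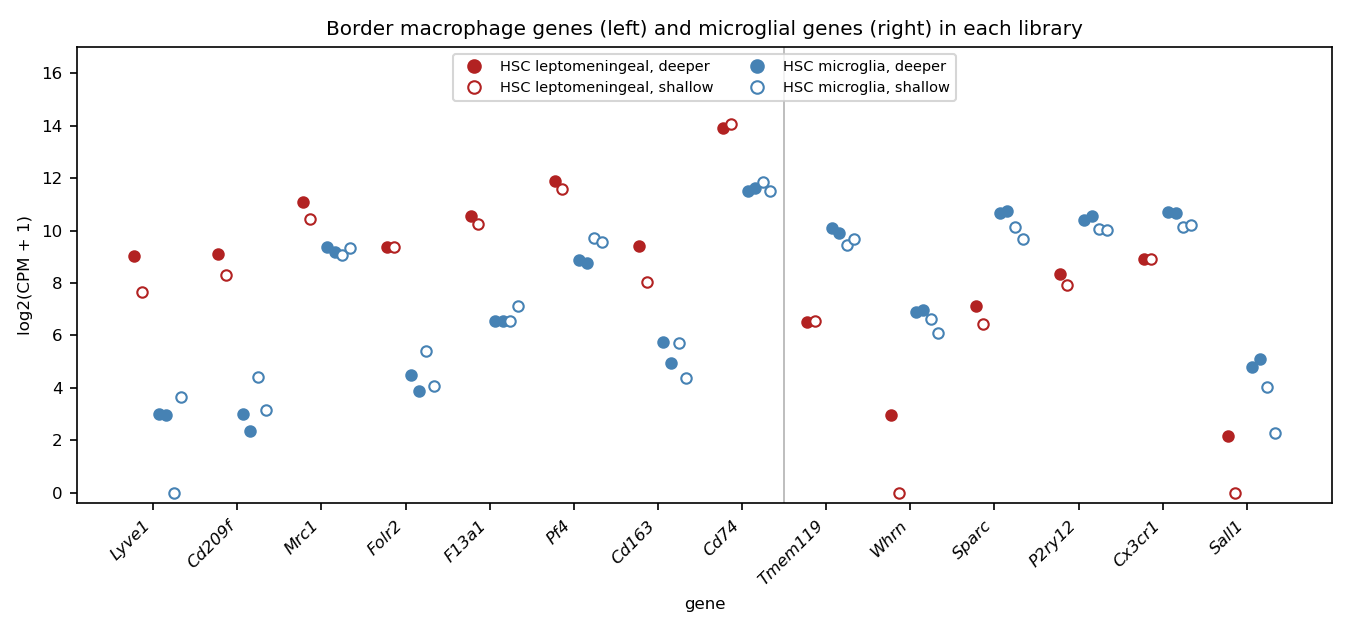
Levels of 8 border macrophage genes (left) and 6 microglial genes (right) in each library, as log2(CPM + 1); red points are the 2 HSC leptomeningeal libraries, blue points the 4 HSC microglia libraries, and open points the shallow libraries. Red lies above blue for each gene on the left and below blue for each gene on the right, with the narrowest gap at Mrc1 on the left and at the scarce Sall1 on the right.

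Most listed genes of resting microglia were lower in HSC leptomeningeal macrophages. Of 40 such genes 39 were tested; 0 were called higher and 27 lower, with a median log2 fold change of -1.80, or -1.61 when genes without a count in a group are set to their bound. Tmem119, a transmembrane protein gene used to mark microglia (chr5:113793729-113800516, minus strand), had 91.0 and 92.4 CPM in HSC leptomeningeal macrophages, against 1098, 963, 707 and 818 CPM in HSC microglia. Whrn, which encodes the scaffold protein whirlin (chr4:63414910-63495991, minus strand), had 6.87 and 0 CPM in HSC leptomeningeal macrophages, against 119, 124, 97.4 and 66.5 CPM in HSC microglia. Tmem119 had a log2 fold change of -3.30 (SE 0.27, adjusted p = 7.89e-11) and Whrn a log2 fold change of -4.24 (SE 0.52, adjusted p = 3.67e-07). For both markers the groups were separate, and the shallow leptomeningeal library held no Whrn count at all, with 3 counts there worth 23.1 CPM. Sparc, the gene of the matrix protein osteonectin (chr11:55394500-55423183), had 137 and 84.7 CPM in HSC leptomeningeal macrophages, against 1629.5, 1703, 1112 and 818 CPM in HSC microglia, a log2 fold change of -3.47 (SE 0.40, adjusted p = 7.02e-07). P2ry12, the ADP receptor through which microglial processes sense injury, had 321 and 239 CPM in HSC leptomeningeal macrophages, against 1356, 1510.3, 1066 and 1049 CPM in HSC microglia, a log2 fold change of -2.12 (SE 0.30, adjusted p = 6.31e-06). Without the 3 deeper HSC-derived libraries its log2 fold change was -2.16 too, but its call was lost there. That fit left a single leptomeningeal library.

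Together these genes were still measurable in the leptomeningeal cells, although Mlph and Nav3, chosen after their values were seen, had no count in either library. The sum over the list was 23980 and 24120 CPM in HSC leptomeningeal macrophages, against 54430, 53210, 76910 and 62660 CPM in HSC microglia. Because the material is bulk RNA, fewer cells of a type and less RNA per cell cannot be told apart. Cx3cr1, the fractalkine receptor gene that carries the gfp insertion in all these cells, had 486 and 478 CPM in HSC leptomeningeal macrophages, against 1673, 1648, 1127 and 1178 CPM in HSC microglia (log2 fold change -1.55, adjusted p = 3.21e-05). Siglech, a sialic acid-binding receptor gene, had 379.6 and 385 CPM in HSC leptomeningeal macrophages, against 1162, 1174, 1122 and 1131 CPM in HSC microglia (log2 fold change -1.59, adjusted p = 3.62e-05). Trem2, a lipid-sensing receptor gene, had 779.9 and 1071 CPM in HSC leptomeningeal macrophages, against 2815, 2718, 4524 and 3636 CPM in HSC microglia. Every one of these genes kept a level of over 300 CPM in the leptomeningeal cells, and the groups did not overlap in any of them. The calls of these 3 genes were kept under all 27 alternatives run. The Cx3cr1 window on chromosome 9 (chr9:120068247-120068546, minus strand) is shown with a match to a loose MEF2 pattern in capitals, at -67 from the start site. The pattern is CTA, any 4 letters and TAG, searched on both strands, so a match need not be a MEF2 site. This pattern stands in 1 of 32 windows of the resting microglia list (3.12%), in 3.69% of all windows and in 4 of 30 windows of the immediate early list (13.3%).
Cx3cr1: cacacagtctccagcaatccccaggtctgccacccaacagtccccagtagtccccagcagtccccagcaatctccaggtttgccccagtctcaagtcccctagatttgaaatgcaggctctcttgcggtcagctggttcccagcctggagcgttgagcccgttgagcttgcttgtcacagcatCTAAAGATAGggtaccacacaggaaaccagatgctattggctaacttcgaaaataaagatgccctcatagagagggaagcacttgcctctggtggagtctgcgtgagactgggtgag

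Among transcription factors of macrophages and microglia, 5 of 32 tested genes were called higher and 4 lower, with a median log2 fold change of -0.21. Klf4, a zinc finger factor that is also an immediate early gene, had 850.3 and 339 CPM in HSC leptomeningeal macrophages, against 153, 169, 66.6 and 50.9 CPM in HSC microglia. Klf2, its close relative, had 399 and 316 CPM in HSC leptomeningeal macrophages, against 150.2, 139, 102 and 62.6 CPM in HSC microglia. Both genes separated the groups in every library. Sall1 was scarce everywhere: it had 3.44 and 0 CPM in HSC leptomeningeal macrophages, against 26.9, 33.0, 15.4 and 3.91 CPM in HSC microglia, from 2 counts in HSC leptomeningeal macrophages and 47 in HSC microglia. Its count ratio was 8.88 higher in HSC microglia (95% interval 2.33 to 75.5, counting error only), and its call (adjusted p = 0.0097, edgeR) was lost without leptomeningeal replicate 1. Without that library 1 of the 32 factors was called higher and 3 lower. The myeloid master regulator gene Spi1 had a log2 fold change of 0.34 and did not pass.

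Genes of TGF-beta signalling moved in both directions, with 25.9% of the tested list called, against 9.72% of all tested genes. Tgfbr1, the type I receptor gene, had 208 and 231 CPM in HSC leptomeningeal macrophages, against 1175, 1099, 748 and 838 CPM in HSC microglia, a log2 fold change of -2.17 (SE 0.24, adjusted p = 4.94e-08). Pmepa1, a feedback inhibitor induced by TGF-beta, had 41.2 and 84.7 CPM in HSC leptomeningeal macrophages, against 153, 202, 364 and 305 CPM in HSC microglia, a log2 fold change of -2.21 (SE 0.33, adjusted p = 1.29e-05). Tgfbi, a secreted TGF-beta-induced matrix protein, had the opposite direction, with 952 and 793 CPM in HSC leptomeningeal macrophages, against 381, 399.9, 405 and 391 CPM in HSC microglia and a log2 fold change of 1.16 (SE 0.17, adjusted p = 9.53e-06). Over the 27 tested members of the superfamily list, 3 were called higher and 4 lower (median -0.55), with 1 in each direction without leptomeningeal replicate 1, and 1 higher and 5 lower without microglia replicate 3. Tgfbr2, the partner receptor gene, had a log2 fold change of -1.15 at under 20 CPM in every library that did not pass (adjusted p = 0.44, edgeR).

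Many receptors that bind sugars or take up cargo were higher in HSC leptomeningeal macrophages. Of 24 tested C-type lectin receptor genes, 14 were called higher and 0 lower (median 1.92); without leptomeningeal replicate 1 the count was 7. They include 5 Cd209 genes, and also Clec4a and Clec4b genes. Clec12a, an inhibitory member that marks bone marrow-derived cells in the brain, had 282 and 478 CPM in HSC leptomeningeal macrophages, against 415, 392, 477 and 552 CPM in HSC microglia. The groups overlapped, and the gene did not pass (log2 fold change -0.34, adjusted p = 0.426). Of 21 scavenger and endocytic receptors, 11 were called higher and 3 lower (median 1.56), against 5 and 1 without leptomeningeal replicate 1. Cd36, a fatty acid and lipoprotein receptor gene, had 179 and 116 CPM in HSC leptomeningeal macrophages, against 36.8, 38.5, 113 and 62.6 CPM in HSC microglia (log2 fold change 1.62, adjusted p = 0.000239). Siglec1, the sialoadhesin gene, had 89.3 and 23.1 CPM in HSC leptomeningeal macrophages, against 4.25, 4.12, 20.5 and 11.7 CPM in HSC microglia (log2 fold change 3.33, adjusted p = 2.51e-05). The groups did not overlap in either gene, but the shallow libraries brought them to within 3 CPM of each other.

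Opsonin recognition changed in parts. Of 17 complement genes, 5 were called higher and 2 lower, with 2 and 0 without leptomeningeal replicate 1 and 4 and 0 without microglia replicate 1. Cfp, which encodes properdin, a stabiliser of the alternative pathway convertase, had 414 and 139 CPM in HSC leptomeningeal macrophages, against 18.4, 27.5, 25.6 and 3.91 CPM in HSC microglia (log2 fold change 3.94, adjusted p = 1.61e-07). C4b, a component of the classical pathway, had 709 and 254 CPM in HSC leptomeningeal macrophages, against 36.8, 34.4, 76.9 and 43.1 CPM in HSC microglia (log2 fold change 3.63, adjusted p = 7.79e-06). Cd93, a receptor once described as the C1q receptor, had 258 and 169 CPM in HSC leptomeningeal macrophages, against 99.2, 102, 30.7 and 66.5 CPM in HSC microglia (log2 fold change 1.44, adjusted p = 0.000145). These 3 were higher in both leptomeningeal libraries than in any microglia library. Among 9 Fc receptor and signalling genes, Fcgrt, the neonatal Fc receptor that recycles IgG, had 510.2 and 347 CPM in HSC leptomeningeal macrophages, against 92.1, 85.2, 92.2 and 62.6 CPM in HSC microglia, a log2 fold change of 2.40 (SE 0.21, adjusted p = 3.88e-10). Fcgr2b, the inhibitory Fc gamma receptor gene, had 333 and 246 CPM in HSC leptomeningeal macrophages, against 126, 147, 138 and 121 CPM in HSC microglia (log2 fold change 1.17, adjusted p = 0.00114). Lyn, a Src family kinase gene, had 131 and 69.3 CPM in HSC leptomeningeal macrophages, against 215, 199, 195 and 172 CPM in HSC microglia and was the member called lower (log2 fold change -0.81, adjusted p = 0.0122), a call lost without leptomeningeal replicate 2. Of 17 genes of apoptotic cell recognition, 2 were called higher, Gas6 among them, and 4 lower, against 1 and 3 without leptomeningeal replicate 1; Havcr2, the TIM-3 gene, had 58.4 and 77.0 CPM in HSC leptomeningeal macrophages, against 193, 183, 164 and 235 CPM in HSC microglia (log2 fold change -1.61, adjusted p = 1.47e-05).

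The main genes of MHC class II presentation were higher in HSC leptomeningeal macrophages. Cd74, the invariant chain that escorts class II molecules, had 15386 and 16976 CPM in HSC leptomeningeal macrophages, against 2930.2, 3195, 3694 and 2892 CPM in HSC microglia, a log2 fold change of 2.35 (SE 0.21, adjusted p = 5.95e-10). H2-Eb1, a class II beta chain gene (chr17:34305867-34316674), had 7959.9 and 8442 CPM in HSC leptomeningeal macrophages, against 2043, 2299, 2889.8 and 2199.5 CPM in HSC microglia, a log2 fold change of 1.80 (SE 0.23, adjusted p = 7.71e-07). H2-Ab1, another beta chain, had 15001 and 15682 CPM in HSC leptomeningeal macrophages, against 3541, 3852, 4324 and 3589 CPM in HSC microglia, and H2-Aa, the matching alpha chain, had 13426 and 15335 CPM in HSC leptomeningeal macrophages, against 3473, 3869.9, 4524 and 3483 CPM in HSC microglia. Each of the 4 genes was separate between the groups, yet the HSC microglia also held each at 2043 CPM or more. The host microglia averaged 15.5 CPM of H2-Eb1. Of 15 tested class II and costimulation genes 7 were called higher and 1 lower (median 0.70). The list summed to 59160 and 65050 CPM in HSC leptomeningeal macrophages, against 23530, 24420, 32950 and 25610 CPM in HSC microglia. Class I presentation moved less, with 15% of its tested genes called, against 9.72% of all tested genes. Of 20 genes, 3 were called higher and 0 lower, with a median of 0.44, and 1 was called without leptomeningeal replicate 2 or microglia replicate 1, against 6 without microglia replicate 3. H2-T22, a non-classical class I gene, had 77.3 and 77.0 CPM in HSC leptomeningeal macrophages, against 39.7, 44.0, 41.0 and 39.1 CPM in HSC microglia (log2 fold change 0.90, adjusted p = 0.0199). Psmb8, an immunoproteasome subunit gene, had 773 and 1171 CPM in HSC leptomeningeal macrophages, against 385, 448, 794 and 658 CPM in HSC microglia and Tap1, a peptide transporter gene, had 198 and 285 CPM in HSC leptomeningeal macrophages, against 147, 164, 108 and 114 CPM in HSC microglia; in Psmb8 the groups overlapped, and both calls were lost without leptomeningeal replicate 2.

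Many chemokine genes were higher in HSC leptomeningeal macrophages. Of 21 tested ligand genes, 13 were called higher and 0 lower, with a median of 1.86. Ccl7, a ligand of CCR2, had 1271 and 501 CPM in HSC leptomeningeal macrophages, against 63.8, 72.8, 51.2 and 70.4 CPM in HSC microglia, a log2 fold change of 3.81 (SE 0.27, adjusted p = 2.88e-11). Ccl12, another CCR2 ligand of the mouse, had 2783 and 1956 CPM in HSC leptomeningeal macrophages, against 704, 891, 758 and 849 CPM in HSC microglia, a log2 fold change of 1.57 (SE 0.21, adjusted p = 1.89e-06). Ccl8, which was chosen after its values were seen, had 1417 and 2796 CPM in HSC leptomeningeal macrophages, against 51.0, 56.3, 251 and 231 CPM in HSC microglia, with the shallow microglia libraries above the deeper ones. The sum over the list was 15200 and 10680 CPM in HSC leptomeningeal macrophages, against 3753, 4304, 3561 and 3374 CPM in HSC microglia. Without leptomeningeal replicate 1, 4 ligands were called higher, and without microglia replicate 3, 11 were called higher and 2 lower. Among 10 receptor genes 2 were called in each direction. Ccr2, which draws monocytes out of the marrow (chr9:124101950-124113557, plus strand), had 486 and 277 CPM in HSC leptomeningeal macrophages, against 113, 118, 118 and 86.1 CPM in HSC microglia, a log2 fold change of 1.87 (SE 0.21, adjusted p = 5.94e-08). Cxcr4, the CXCL12 receptor gene, had 37.8 and 7.70 CPM in HSC leptomeningeal macrophages, against 77.9, 85.2, 82.0 and 82.2 CPM in HSC microglia, a log2 fold change of -1.38 (SE 0.30, adjusted p = 0.00194).

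Some interferon-stimulated genes were higher in HSC leptomeningeal macrophages. Of 44 tested, 19 were called higher and 1 lower, with a median log2 fold change of 0.90. Ifitm3, a membrane protein that restricts virus entry, had 1082 and 1271 CPM in HSC leptomeningeal macrophages, against 177, 166, 384 and 360.1 CPM in HSC microglia, a log2 fold change of 2.19 (SE 0.27, adjusted p = 1.80e-06). Ifi207, a PYHIN family gene, had 636 and 424 CPM in HSC leptomeningeal macrophages, against 272, 250.1, 149 and 204 CPM in HSC microglia (log2 fold change 1.27, adjusted p = 0.00012). Ifi211, of the same family, had 141 and 231 CPM in HSC leptomeningeal macrophages, against 36.8, 63.2, 82.0 and 70.4 CPM in HSC microglia (log2 fold change 1.54, adjusted p = 0.000382). In all 3 the groups stayed apart in every library, while the list sum did not: it was 11530 and 14970 CPM in HSC leptomeningeal macrophages, against 7538, 7901, 10920 and 11550 CPM in HSC microglia. Without leptomeningeal replicate 1 the counts were 7 higher and 1 lower, and without replicate 2 they were 12 and 1. The interferon-stimulated response element (GAAA, any 2 letters, GAAA; both strands) stands in 20 of 39 windows of the list (51.3%), in 53 of 606 windows of genes called higher (8.75%) and in 3.44% of all windows. In Ifitm3, the leading gene of the list, it stands at +2 and +19 from the start site (chr7:141010695-141010994, minus strand), in capitals.
Ifitm3: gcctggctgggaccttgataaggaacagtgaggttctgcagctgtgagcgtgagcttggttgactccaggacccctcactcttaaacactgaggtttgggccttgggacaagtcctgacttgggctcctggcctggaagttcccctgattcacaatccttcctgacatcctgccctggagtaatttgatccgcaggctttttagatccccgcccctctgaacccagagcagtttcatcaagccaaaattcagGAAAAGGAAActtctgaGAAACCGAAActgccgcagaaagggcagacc

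Some cytokine genes and feedback genes of NF-kB were higher as well. Of 29 tested, 14 were called higher and 0 lower, with a median of 1.15. Il10, the gene of the anti-inflammatory cytokine interleukin 10, had 68.7 and 23.1 CPM in HSC leptomeningeal macrophages, against 8.50, 8.25, 5.12 and 0 CPM in HSC microglia, a log2 fold change of 3.05 (SE 0.49, adjusted p = 3.04e-05). Traf1, an adaptor of TNF receptors that NF-kB induces, had 96.2 and 69.3 CPM in HSC leptomeningeal macrophages, against 7.08, 28.9, 15.4 and 0 CPM in HSC microglia (log2 fold change 2.55, adjusted p = 3.27e-05). Tnfsf9, a costimulatory ligand gene, had 287 and 92.4 CPM in HSC leptomeningeal macrophages, against 60.9, 50.8, 35.9 and 3.91 CPM in HSC microglia (log2 fold change 2.31, adjusted p = 0.000299). Within microglia the shallow libraries had the lower values in Tnfsf9, as in the sum over the list. That sum was 9470 and 3851 CPM in HSC leptomeningeal macrophages, against 3727, 4028, 1624 and 1718 CPM in HSC microglia, so the shallow leptomeningeal library lay between both deeper microglia libraries. None of the 29 passed without leptomeningeal replicate 1 (0 called), 5 did without the 3 deeper libraries, and 15 did without the 3 shallow ones. The NF-kB motif (GGG, any 2 letters, TTTCC; both strands) stands in 10 of 27 windows of this list (37%), in 28 of 606 windows of genes called higher (4.62%), in 5 of 436 of those called lower (1.15%) and in 1.63% of all windows. Nfkbia, the gene of the NF-kB inhibitor I kappa B alpha, was chosen after its values were seen as the example. It had 2410.0 and 1294 CPM in HSC leptomeningeal macrophages, against 1278, 1286, 461 and 579 CPM in HSC microglia (log2 fold change 1.03, adjusted p = 0.0495), and its window has the motif at -29 on the opposite strand (chr12:55492598-55492897, minus strand), in capitals.
Nfkbia: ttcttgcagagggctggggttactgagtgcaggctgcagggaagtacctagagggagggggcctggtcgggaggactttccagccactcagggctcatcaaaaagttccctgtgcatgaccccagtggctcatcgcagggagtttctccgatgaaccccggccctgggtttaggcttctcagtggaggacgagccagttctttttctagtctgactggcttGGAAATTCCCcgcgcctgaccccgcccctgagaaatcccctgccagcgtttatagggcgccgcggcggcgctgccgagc

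Immediate early genes, which cells switch on within minutes of a stimulus, formed the list with the largest share of called members. Of 28 tested 22 were called higher and 0 lower, with a median of 1.86. Egr1, a zinc finger factor, had 2239.9 and 1094 CPM in HSC leptomeningeal macrophages, against 493, 445, 369 and 286 CPM in HSC microglia, a log2 fold change of 2.07 (SE 0.24, adjusted p = 1.23e-07). Ier2 had 854 and 408 CPM in HSC leptomeningeal macrophages, against 150.2, 142, 56.4 and 102 CPM in HSC microglia, a log2 fold change of 2.44 (SE 0.27, adjusted p = 5.16e-07). Fosb, a subunit of AP-1, had 873 and 300.4 CPM in HSC leptomeningeal macrophages, against 147, 149.8, 66.6 and 82.2 CPM in HSC microglia, a log2 fold change of 2.37 (SE 0.30, adjusted p = 1.34e-05). The groups were separate for each of these genes, and within both groups the shallow libraries lay below the deeper ones. Summed over the list, the level was 20690 and 10440 CPM in HSC leptomeningeal macrophages, against 6558, 6539, 3156 and 3119 CPM in HSC microglia. The log2 fold change of Egr1 was 2.26 without the 3 shallow libraries and 1.74 without the 3 deeper HSC-derived ones. Without the 3 shallow libraries 21 of the 28 were called higher, without the 3 deeper ones 13, and without leptomeningeal replicate 1 only 4. Atf3, a stress-induced factor of the same list chosen after its values were seen, had 1446 and 878 CPM in HSC leptomeningeal macrophages, against 455, 415, 199.8 and 133 CPM in HSC microglia (log2 fold change 1.90, adjusted p = 4.48e-05). Its window carries a match to a loose serum response element pattern: CC, any letter, TAT, any 2 letters and GG, searched on both strands. The match stands in capitals at -197 on the opposite strand (chr1:191183284-191183583, minus strand). Because letters of the pattern are free, a match need not be that element. In the list 4 of 30 windows (13.3%) hold this pattern, as do 1.54% of all windows.
Atf3: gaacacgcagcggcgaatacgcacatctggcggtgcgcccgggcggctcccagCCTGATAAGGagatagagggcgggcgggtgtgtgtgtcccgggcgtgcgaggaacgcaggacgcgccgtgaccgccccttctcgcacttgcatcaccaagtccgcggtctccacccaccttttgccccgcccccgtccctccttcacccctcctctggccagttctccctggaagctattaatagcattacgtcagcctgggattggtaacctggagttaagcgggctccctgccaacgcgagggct

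No heat shock gene was called higher with them, and 16.7% of the tested list was called, against 9.72% of all tested genes. Of 18 tested, 0 were called higher and 3 lower, although 4 were called higher without the 3 shallow libraries. Hspa1a, an inducible HSP70 gene, had 219.9 and 231 CPM in HSC leptomeningeal macrophages, against 1272, 1329, 774 and 849 CPM in HSC microglia, a log2 fold change of -2.25 (SE 0.31, adjusted p = 5.29e-06). Hspa1b, its near-identical neighbour, had 75.6 and 116 CPM in HSC leptomeningeal macrophages, against 990.4, 1192, 769 and 607 CPM in HSC microglia, a log2 fold change of -3.36 (SE 0.67, adjusted p = 0.00464). Hspb1, a small heat shock protein gene, had 6.87 and 0 CPM in HSC leptomeningeal macrophages, against 62.3, 39.9, 46.1 and 15.7 CPM in HSC microglia (log2 fold change -2.97, adjusted p = 0.000993). All 3 were higher in every microglia library than in either leptomeningeal library. Without leptomeningeal replicate 1, 1 gene was called lower, and without microglia replicate 3, 2 genes of the list were called higher. The coding sequences of Hspa1a and Hspa1b are close copies; the last 500 bases of their transcripts share at most 10 consecutive letters, so 3′ reads could separate them. The part of tissue handling in the immediate early and heat shock values was not tested.

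Lipid genes changed in both directions. The called share was 30.8% for lipid handling and 20% for cholesterol synthesis and uptake, against 9.72% of all tested genes. Pltp, the phospholipid transfer protein gene, had 1232 and 662 CPM in HSC leptomeningeal macrophages, against 103, 109, 189.6 and 164 CPM in HSC microglia, a log2 fold change of 2.89 (SE 0.26, adjusted p = 2.07e-08). Apoe, the gene of the main lipid carrier of the brain, had 62595 and 73033 CPM in HSC leptomeningeal macrophages, against 111620.0, 87333, 250900.0 and 205660.0 CPM in HSC microglia, a log2 fold change of -1.27 (SE 0.31, adjusted p = 0.00483). Apoe varied by more than 2-fold among the microglia libraries, with the shallow ones higher, and its call was lost without the 3 shallow libraries and without leptomeningeal replicate 1. Mylip, a ubiquitin ligase gene induced by sterol-sensing LXR receptors, had 25.8 and 23.1 CPM in HSC leptomeningeal macrophages, against 105, 111, 71.7 and 66.5 CPM in HSC microglia (log2 fold change -1.91, adjusted p = 7.89e-05). Over 26 genes of lipid handling 2 were called higher and 6 lower, and 5 and 6 without microglia replicate 3. Over 15 genes of cholesterol synthesis and uptake 3 were called higher and 0 lower, and 0 were called without leptomeningeal replicate 1. Stard4, a cholesterol transport protein gene, had 22.3 and 7.70 CPM in HSC leptomeningeal macrophages, against 2.83, 2.75, 0 and 7.83 CPM in HSC microglia (log2 fold change 2.51, adjusted p = 0.0131). Srebf2, the transcription factor gene of that pathway, had 80.7 and 30.8 CPM in HSC leptomeningeal macrophages, against 14.2, 20.6, 56.4 and 15.7 CPM in HSC microglia; microglia replicate 3 lay inside the leptomeningeal range, and the log2 fold change of 1.65 turned to -0.14 without the 3 deeper libraries.

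Some lysosomal enzyme genes were lower in HSC leptomeningeal macrophages. Of 29 tested genes 1 was called higher and 10 lower (median -0.41), while 18 were not called. Without leptomeningeal replicate 2, 5 were lower, and without the 3 shallow libraries 3 were higher and 7 lower. Ctsd, the cathepsin D gene, had 2352 and 2749.7 CPM in HSC leptomeningeal macrophages, against 10361, 9515, 14736 and 14610.0 CPM in HSC microglia, a log2 fold change of -2.27 (SE 0.25, adjusted p = 3.35e-08). Ctse, the cathepsin E gene, had 36.1 and 61.6 CPM in HSC leptomeningeal macrophages, against 126, 139, 143 and 247 CPM in HSC microglia, a log2 fold change of -1.90 (SE 0.30, adjusted p = 2.30e-05). The genes of disease-associated microglia, a programme described in mouse models of neurodegeneration, did not move as a block. Of 27 tested, 4 were called higher, Ccl6 and Lgals3 among them, although the groups overlapped in Lgals3. Another 6 were lower, Ctsd, Trem2, Cd9 and Apoe among them. A scaling that left out ribosomal genes and Apoe reduced the 4 called higher to 2, as did leaving out either of microglia replicates 1 and 2. Cd9, a tetraspanin gene, had 92.8 and 77.0 CPM in HSC leptomeningeal macrophages, against 330.1, 287, 395 and 211 CPM in HSC microglia (log2 fold change -1.79, adjusted p = 7.06e-06).

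Haem and nutrient handling also differed. Of 21 genes of iron and haem handling 5 were called higher and 1 lower, and 3 and 0 without leptomeningeal replicate 1. Besides Cd163 they include both biliverdin reductases, the enzymes that turn the haem breakdown product biliverdin into bilirubin. Blvrb had 541 and 709 CPM in HSC leptomeningeal macrophages, against 271, 229.5, 323 and 254 CPM in HSC microglia, a log2 fold change of 1.21 (SE 0.18, adjusted p = 1.31e-05). Blvra had 132 and 239 CPM in HSC leptomeningeal macrophages, against 56.7, 64.6, 97.4 and 47.0 CPM in HSC microglia, a log2 fold change of 1.38 (SE 0.26, adjusted p = 0.000369). Of 31 solute carriers 1 was called higher and 9 lower, and 3 to 4 were lower when either leptomeningeal library or microglia replicate 1 or 2 was left out. Slco2b1, an organic anion transporter gene, had 319.5 and 262 CPM in HSC leptomeningeal macrophages, against 690.04, 738, 661 and 505 CPM in HSC microglia (log2 fold change -1.14, adjusted p = 0.000208). Slc16a3, a lactate exporter gene, had 10.3 and 0 CPM in HSC leptomeningeal macrophages, against 35.4, 35.7, 71.7 and 11.7 CPM in HSC microglia (log2 fold change -2.11, adjusted p = 0.0106). Slc7a11, the cystine-glutamate exchanger gene, was the exception and rested on the shallow leptomeningeal library, with 12.02 and 154 CPM in HSC leptomeningeal macrophages, against 0, 2.75, 0 and 0 CPM in HSC microglia. It had 27 counts in HSC leptomeningeal macrophages and 2 in HSC microglia, a ratio of 35.7 (95% interval 8.98 to 310, counting error only). Of 18 glycolytic genes 4 were called higher and 1 lower, against 1 and 0 without leptomeningeal replicate 1. Gpi1, the phosphoglucose isomerase gene, had 357 and 408 CPM in HSC leptomeningeal macrophages, against 163, 194, 220.3 and 196 CPM in HSC microglia (log2 fold change 0.99, adjusted p = 0.000336). The lactate dehydrogenase subunits went opposite ways. Ldha had 216 and 193 CPM in HSC leptomeningeal macrophages, against 80.8, 119.6, 128 and 93.9 CPM in HSC microglia (log2 fold change 1.01, adjusted p = 0.000802), and Ldhb had 32.6 and 61.6 CPM in HSC leptomeningeal macrophages, against 118, 122, 159 and 129 CPM in HSC microglia (log2 fold change -1.70, adjusted p = 0.000388).

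Beside P2ry12, a few receptors of the purinergic list were lower. Of its 13 tested genes 1 was called higher and 4 lower, P2ry12 included (median -0.71), with 0 and 3 without leptomeningeal replicate 1 or microglia replicate 1, and 0 and 6 without microglia replicate 4. Gpr34, a lysophosphatidylserine receptor gene of the same receptor family, had 158 and 100.1 CPM in HSC leptomeningeal macrophages, against 541, 526, 425 and 423 CPM in HSC microglia (log2 fold change -1.80, adjusted p = 1.56e-05). P2ry13, another ADP receptor gene, had 173 and 146 CPM in HSC leptomeningeal macrophages, against 434, 426, 323 and 207 CPM in HSC microglia (log2 fold change -1.12, adjusted p = 0.00257). Both stayed below all microglia libraries in each leptomeningeal library.

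Adhesion and matrix genes were divided. Of 26 integrin and adhesion genes 5 were called higher and 6 lower, against 0 and 4 without leptomeningeal replicate 1. Itgb5, an integrin beta chain gene, had 180.4 and 162 CPM in HSC leptomeningeal macrophages, against 605, 555, 553 and 720.1 CPM in HSC microglia (log2 fold change -1.80, adjusted p = 1.61e-07). Itga6, an integrin alpha chain gene, had 75.6 and 108 CPM in HSC leptomeningeal macrophages, against 312, 294, 266 and 247 CPM in HSC microglia (log2 fold change -1.74, adjusted p = 8.41e-07). Both were lower in each leptomeningeal library than in any microglia library. Of 28 genes of matrix, proteases and coagulation 10 were called higher and 6 lower, and 4 and 4 without leptomeningeal replicate 1. Mmp9, the gelatinase B gene, had 277 and 69.3 CPM in HSC leptomeningeal macrophages, against 7.08, 1.37, 10.2 and 0 CPM in HSC microglia, a log2 fold change of 5.60 (SE 0.57, adjusted p = 6.39e-06). Lgals1, which encodes the sugar-binding protein galectin 1, had 1135 and 970.5 CPM in HSC leptomeningeal macrophages, against 189.9, 164, 174 and 282 CPM in HSC microglia, a log2 fold change of 2.41 (SE 0.24, adjusted p = 2.57e-08). Fn1, the fibronectin gene, had 17.2 and 7.70 CPM in HSC leptomeningeal macrophages, against 0, 0, 0 and 0 CPM in HSC microglia and was at least 9.70-fold higher in HSC leptomeningeal macrophages, taking 3 counts over the microglia libraries as the floor. Of 21 growth factor and receptor genes 2 were called higher and 2 lower, against 0 and 1 without leptomeningeal replicate 1, and 1 and 0 without leptomeningeal replicate 2 or microglia replicate 1. With all libraries 19% of this growth factor list was called, against 9.72% of all tested genes. Plxnd1, a semaphorin receptor gene, had 49.8 and 46.2 CPM in HSC leptomeningeal macrophages, against 12.8, 6.87, 15.4 and 3.91 CPM in HSC microglia (log2 fold change 2.34, adjusted p = 0.00243). Pdgfb, a platelet-derived growth factor gene, had 87.6 and 46.2 CPM in HSC leptomeningeal macrophages, against 171, 170.4, 102 and 114 CPM in HSC microglia (log2 fold change -0.94, adjusted p = 0.0141). Fgf13 was listed at 0 counts in HSC leptomeningeal macrophages and was at least 1.89-fold higher in HSC microglia, with a call that was lost under 16 of 24 alternatives.

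The Toll-like receptor list had 16.7% of tested genes called, the Siglec list 26.3% and the Ms4a list 30%, against 9.72% of all genes tested. The p53 list, with 9.52%, and the cell cycle list, with 0%, did not exceed that share. The called share also rose with level, from 3.17% of genes under 10 CPM to 37.6% of those over 1000 CPM. The lists were not matched for level, so these shares do not set the lists apart. Of 18 genes of Toll-like receptor signalling 2 were called higher and 1 lower. Cd14, the lipopolysaccharide co-receptor gene, had 3387 and 1155 CPM in HSC leptomeningeal macrophages, against 1058, 1047, 646 and 536 CPM in HSC microglia (log2 fold change 1.47, adjusted p = 0.00111), and Cd180, a related receptor gene, had 65.3 and 53.9 CPM in HSC leptomeningeal macrophages, against 142, 155, 102 and 102 CPM in HSC microglia (log2 fold change -1.07, adjusted p = 0.00317). Without leptomeningeal replicate 1, 0 of the 18 were called. Of 19 Siglec and sialic acid genes 2 were called higher and 3 lower, with 0 and 2 without that library, and 2 and 1 without leptomeningeal replicate 2 or microglia replicate 1; Npl, which cleaves sialic acid, had 72.1 and 77.0 CPM in HSC leptomeningeal macrophages, against 32.6, 16.5, 46.1 and 43.1 CPM in HSC microglia (log2 fold change 1.29, adjusted p = 0.00685). Of 10 Ms4a genes and their relatives 2 were called higher and 1 lower. Ms4a6d had 549.7 and 616 CPM in HSC leptomeningeal macrophages, against 313, 231, 359 and 297 CPM in HSC microglia (log2 fold change 0.97, adjusted p = 0.00037). Ms4a4b, which T cells also express, had 87.6 and 30.8 CPM in HSC leptomeningeal macrophages, against 18.4, 26.1, 0 and 7.83 CPM in HSC microglia (log2 fold change 2.05, adjusted p = 0.0148), and Tmem176a had 776 and 686 CPM in HSC leptomeningeal macrophages, against 1588, 1458, 2357 and 1816 CPM in HSC microglia (log2 fold change -1.29, adjusted p = 0.000267). Among 20 genes known from bone marrow-derived macrophages of the brain 8 were called higher and 5 lower. Plbd1, a phospholipase B-like gene of that list, had 354 and 239 CPM in HSC leptomeningeal macrophages, against 112, 129, 82.0 and 117 CPM in HSC microglia (log2 fold change 1.45, adjusted p = 6.85e-06). Of 21 p53 targets 1 was called in each direction, Btg2 higher and Sesn1 lower; 0 and 1 were called without leptomeningeal replicate 1, and 3 and 1 without replicate 2. None of 14 cell cycle genes was called (0 by edgeR, 1 without microglia replicate 3, 2 without the 3 shallow libraries).

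**Figure D3:**
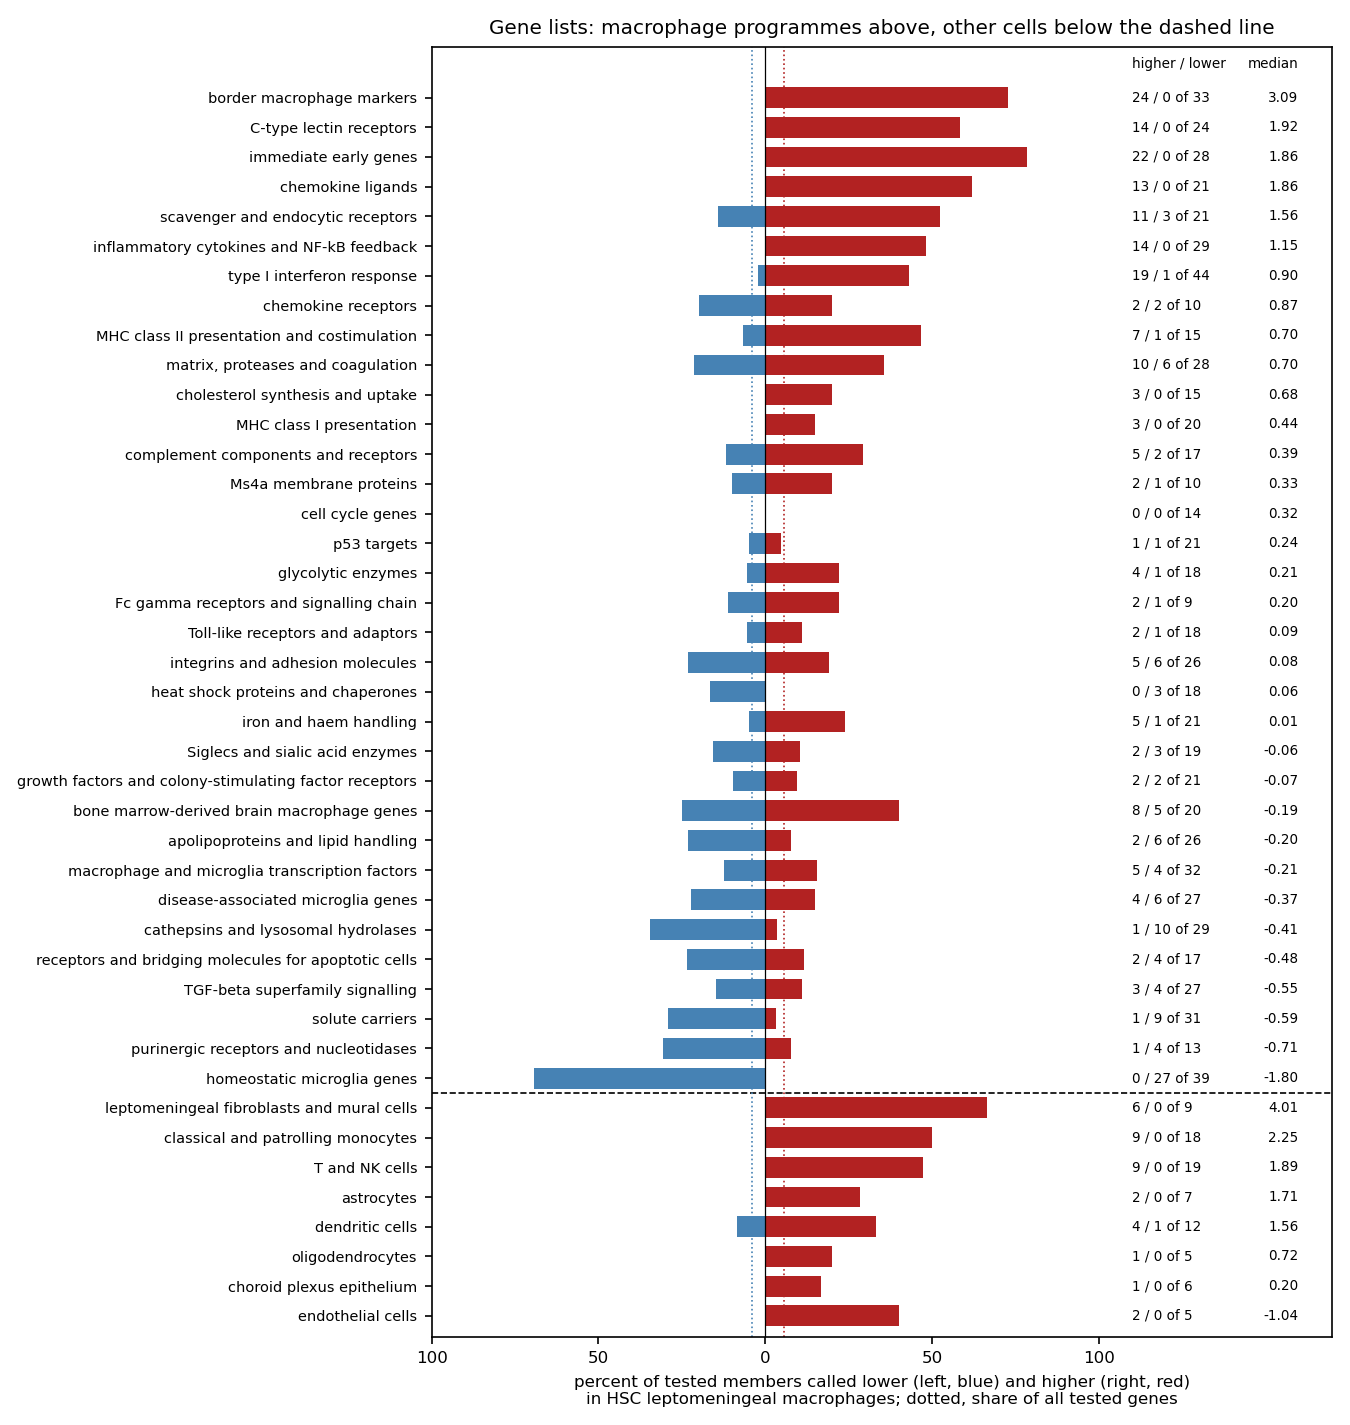
For each gene list, bars give the percentage of its tested members called higher (red, right) and lower (blue, left) in HSC leptomeningeal macrophages, with the counts and the median log2 fold change at the right edge; dotted lines mark the 5.75% higher and 3.97% lower of all tested genes. Lists of other cells in which no gene was called, and the ribosomal proteins, are not drawn.

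The extremes of the comparison mix macrophage genes with genes known from other cells. The 10 highest genes with at least 50 CPM and no overlap included Mgp, Cd209f, Lyve1, Slc7a11, Mmp9, Folr2, Cd209g, Fcna and Nnat. Mgp, the matrix Gla protein gene of mural cells and fibroblasts, had 101 and 61.6 CPM in HSC leptomeningeal macrophages, against 0, 1.37, 0 and 0 CPM in HSC microglia, which is 67 counts against 1 and a ratio of 177 (95% interval 30.8 to 7106, counting error only). Nnat, an imprinted gene known from neural and meningeal tissue, had 80.7 and 439 CPM in HSC leptomeningeal macrophages, against 1.42, 5.50, 35.9 and 7.83 CPM in HSC microglia. The 10 lowest were Whrn, Npnt, Rtn4rl1, Tmem52, Sparc, Lhfpl2, Hspa1b, Tmem119, Col27a1 and Serpine2. Npnt, the gene of the integrin ligand nephronectin, had 5.15 and 0 CPM in HSC leptomeningeal macrophages, against 66.6, 74.2, 46.1 and 43.1 CPM in HSC microglia, a count ratio of 15.2 higher in HSC microglia (95% interval 5.09 to 74.9). Lhfpl2, a tetraspan membrane protein gene, had 13.7 and 15.4 CPM in HSC leptomeningeal macrophages, against 153, 146, 164 and 129 CPM in HSC microglia. Rtn4rl1, a Nogo receptor homologue gene, had 8.59 and 7.70 CPM in HSC leptomeningeal macrophages, against 139, 115, 82.0 and 93.9 CPM in HSC microglia. Each of these lower genes was separate between the groups, but the calls of Npnt, Hspa1b, Col27a1 and Serpine2 were lost without leptomeningeal replicate 1.

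Markers of other cells moved with the compartment. Of 18 marker genes of leptomeningeal fibroblasts and mural cells 9 were tested, of which 6 were called higher and 0 lower, and their summed level was 3499 and 9689 CPM in HSC leptomeningeal macrophages, against 94.9, 82.5, 671 and 544 CPM in HSC microglia. Most of it was Ptgds, the prostaglandin D synthase gene, chosen after its values were seen, with 3162 and 9112 CPM in HSC leptomeningeal macrophages, against 80.8, 68.7, 574 and 497 CPM in HSC microglia. Apod, which encodes apolipoprotein D, had 117 and 293 CPM in HSC leptomeningeal macrophages, against 4.25, 4.12, 46.1 and 11.7 CPM in HSC microglia, a log2 fold change of 4.08 (SE 0.50, adjusted p = 7.26e-06). Igfbp2 had 53.2 and 69.3 CPM in HSC leptomeningeal macrophages, against 7.08, 1.37, 20.5 and 11.7 CPM in HSC microglia, a log2 fold change of 3.00 (SE 0.67, adjusted p = 0.00464). The fibroblast genes Col1a1, Col3a1, Lum and Pdgfra had no row in the table, and Col1a2 had 10.3 and 38.5 CPM in HSC leptomeningeal macrophages, against 0, 0, 20.5 and 0 CPM in HSC microglia. The summed level was 2245 to 3467 CPM in monocyte-derived leptomeningeal macrophages and 32.2 to 48.7 CPM in monocyte-derived microglia. The part of these cells in the genes called higher, Mgp, Apod and Nnat included, was not tested.

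Some lymphocyte and monocyte markers were higher too. Of 19 T and NK cell genes 9 were called higher and 0 lower, and the sum was 1347 and 608 CPM in HSC leptomeningeal macrophages, against 285, 542, 82.0 and 188 CPM in HSC microglia. Thy1 had 96.2 and 53.9 CPM in HSC leptomeningeal macrophages, against 12.8, 26.1, 5.12 and 15.7 CPM in HSC microglia, a log2 fold change of 2.30 (SE 0.44, adjusted p = 0.000838). Cd3g, a chain of the T cell receptor complex, had 15.5 and 7.70 CPM in HSC leptomeningeal macrophages, against 0, 0, 0 and 0 CPM in HSC microglia and was at least 8.82-fold higher in HSC leptomeningeal macrophages. Cd3g was at 0 in all 4 microglia libraries, while its partner Cd3d was not. None of the 19 genes was called without leptomeningeal replicate 1 (0 by edgeR), and 5 were without microglia replicate 1. Of 18 monocyte genes 9 were called higher and 0 lower, and 2 without leptomeningeal replicate 1. Their sum was 2358 and 1671 CPM in HSC leptomeningeal macrophages, against 1046, 1035, 994 and 978 CPM in HSC microglia. Ly6c2, the marker of classical monocytes, had 39.5 and 38.5 CPM in HSC leptomeningeal macrophages, against 2.83, 13.7, 5.12 and 7.83 CPM in HSC microglia, a log2 fold change of 2.29 (SE 0.52, adjusted p = 0.00262). Chil3 and Ace, markers of classical and patrolling monocytes, were at 0 in all 6 libraries, and Vcan had no row. Of 12 dendritic cell genes 4 were called higher and 1 lower, with 0 and 1 without leptomeningeal replicate 1, and 2 and 1 without microglia replicate 1; Cd209a had 374 and 108 CPM in HSC leptomeningeal macrophages, against 45.3, 55.0, 0 and 0 CPM in HSC microglia. The part of these cells in the values above was not tested.

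Markers of nerve tissue, vessels and red blood cells were few among the tested genes. The called share was 28.6% for astrocyte, 20% for oligodendrocyte and 40% for endothelial genes, and 0% for erythroid and neuronal genes. Of all tested genes 9.72% were called. Of 7 astrocyte genes 2 were called higher, of which Sparcl1 had 39.5 and 84.7 CPM in HSC leptomeningeal macrophages, against 1.42, 1.37, 35.9 and 15.7 CPM in HSC microglia. Of 5 oligodendrocyte genes Mbp was called higher, with 127 and 169 CPM in HSC leptomeningeal macrophages, against 34.0, 37.1, 138 and 82.2 CPM in HSC microglia, and the groups overlapped. Its call was lost without either leptomeningeal library and without microglia replicate 1 or 2. For Sparcl1 and Mbp both shallow microglia libraries lay above the deeper ones. Of 5 endothelial genes Egfl7 and Pglyrp1 were called higher. Egfl7 had 48.1 and 84.7 CPM in HSC leptomeningeal macrophages, against 7.08, 12.4, 15.4 and 23.5 CPM in HSC microglia. Pglyrp1 was at least 5.29-fold higher over both leptomeningeal libraries together, with 0 counts in HSC microglia. That difference rested on leptomeningeal replicate 1, without which Pglyrp1, but not Egfl7, lost its call. With only the shallow HSC-derived libraries the log2 fold change of Pglyrp1 was 0. The median of the 5 fitted log2 fold changes was -1.04, and 1.60 with genes lacking counts in a group set to their bound, so its sign depends on them. Kdr and Pecam1, also of the endothelial list, were at 0 in both leptomeningeal libraries, and Pecam1 is on the adhesion list as well. Haemoglobin and other erythroid genes summed to 450 and 4275 CPM in HSC leptomeningeal macrophages, against 948, 53.6, 56.4 and 50.9 CPM in HSC microglia, with 0 of 5 called. Transthyretin (Ttr), the secreted product of the choroid plexus, had 292 and 15.4 CPM in HSC leptomeningeal macrophages, against 453, 9.62, 25.6 and 301 CPM in HSC microglia and differed more within groups than between them (log2 fold change -0.10, adjusted p = 0.986). None of 8 neutrophil, 5 B cell, 5 mast cell and 2 neuronal genes was called (0 in each list by edgeR). Neutrophil genes summed to 51.5 and 100.1 CPM in HSC leptomeningeal macrophages, against 119, 126, 71.7 and 62.6 CPM in HSC microglia, and their granule genes Camp and Ltf were at 0 in all 6 libraries.

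Ribosomal protein genes followed depth as well as compartment. Of 83 tested, 18 were called higher and 0 lower, with a median of 0.61. Rpl4 had 2652 and 2757 CPM in HSC leptomeningeal macrophages, against 1139, 1219, 1829 and 1652 CPM in HSC microglia, a log2 fold change of 0.90 (SE 0.20, adjusted p = 0.0018), and Rpl8 had 2654 and 2657 CPM in HSC leptomeningeal macrophages, against 1144, 1185, 2034 and 1515 CPM in HSC microglia, a log2 fold change of 0.86 (SE 0.20, adjusted p = 0.00416). Summed over the list the level was 166900 and 225300 CPM in HSC leptomeningeal macrophages, against 84140, 83630, 189900 and 165300 CPM in HSC microglia, so the groups overlapped through the shallow microglia libraries. Without the 3 shallow libraries 70 of the 83 were called higher. The count was 3 without leptomeningeal replicate 1, 6 without replicate 2, 10 without microglia replicate 1 or 2, and 39 without microglia replicate 3.

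**Figure D4:**
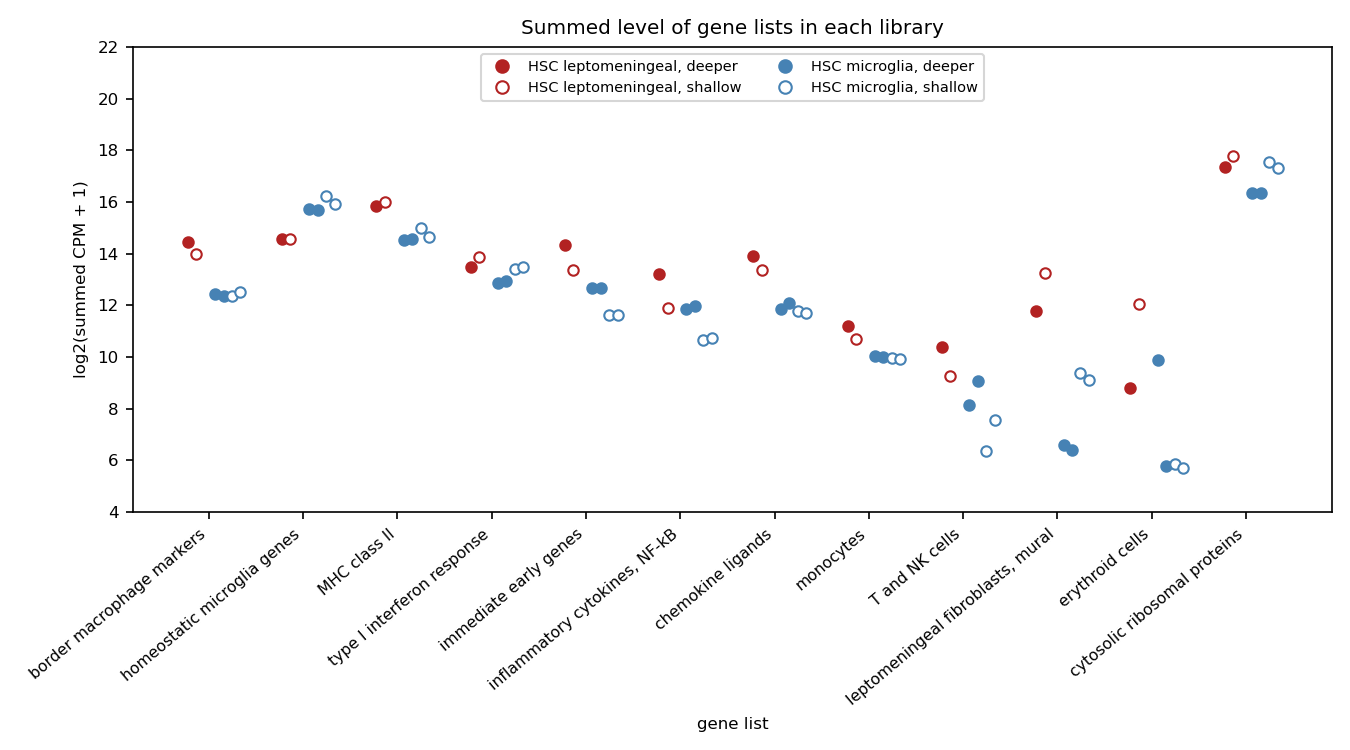
Summed levels of 12 gene lists in each library as log2(summed CPM + 1), with red for the 2 HSC leptomeningeal libraries, blue for the 4 HSC microglia libraries and open points for the shallow ones. The border macrophage, MHC class II, chemokine and fibroblast lists are separate between the groups, whereas the NF-kB, erythroid and ribosomal lists overlap.

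The monocyte-derived pair gave the same contrast in 4 against 4 other libraries. There 3736 genes were called (35.3%), 2012 higher (19%) and 1724 lower (16.3%). Of the 1030 genes called in HSC-derived cells 916 were called in the same direction in monocyte-derived cells, which is 88.9% of the HSC-derived set and 24.5% of the monocyte-derived set. Of these, 568 were higher and 348 lower in the leptomeningeal cells of both origins. Another 113 were called in HSC-derived cells without a call in monocyte-derived cells, and 1 gene had opposite calls. Over all 10597 genes the log2 fold changes of both origins had a Pearson correlation of 0.623 and a Spearman correlation of 0.615, computed across genes, which are not independent replicates. The marker genes behaved alike: Lyve1 had log2 fold changes of 5.82 in HSC-derived and 5.68 in monocyte-derived cells, Folr2 5.04 and 4.85, and P2ry12 -2.12 and -2.12. None of these 3 differed between origins by the test of the difference (adjusted p = 0.996, 0.95 and 1, edgeR), which does not show that they were equal. Tmem119 had log2 fold changes of -3.30 and -2.29, a difference of -1.01 (SE 0.31, adjusted p = 0.354) that did not pass.

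The test of the difference between origins called 6 genes (0.0566%), all with a smaller or opposite compartment difference in HSC-derived cells, and 0 in the other direction. At an unadjusted p under 0.05 there were 236 genes in that other direction and 610 in the called one, and DESeq2 called 49 genes in all and limma-voom 4. H2-Eb1 had 7759.8, 11220.0, 11633 and 10264 CPM in monocyte-derived leptomeningeal macrophages, against 536, 828, 930.4 and 799 CPM in monocyte-derived microglia. Both HSC leptomeningeal values lay within the range of the monocyte-derived leptomeningeal libraries, and every HSC microglia library lay above every monocyte-derived microglia library. The log2 fold change was 1.80 in HSC-derived and 3.72 in monocyte-derived cells, a difference of -1.92 (SE 0.32, adjusted p = 0.0079). Ccr2 had 427, 474, 568 and 526 CPM in monocyte-derived leptomeningeal macrophages, against 38.0, 52.1, 48.3 and 53.5 CPM in monocyte-derived microglia. Its log2 fold changes were 1.87 and 3.39, a difference of -1.51 (SE 0.27, adjusted p = 0.0163). Here too, each HSC microglia library lay above each monocyte-derived microglia library. H2-Aa differed by -1.81 (SE 0.35, adjusted p = 0.0308) and H2-Ab1 by -1.59 (SE 0.32, adjusted p = 0.0367). Lgals3, which encodes the glycan-binding protein galectin 3, had a log2 fold change of 1.16 in HSC-derived and 2.84 in monocyte-derived cells (difference -1.67, SE 0.33, adjusted p = 0.0367).

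Gngt2, a G protein gamma subunit gene, was the gene with opposite calls. It had 148 and 162 CPM in HSC leptomeningeal macrophages, against 258, 251, 389 and 427 CPM in HSC microglia. In the monocyte-derived pair it had 237, 378, 296 and 297 CPM in leptomeningeal macrophages, against 208, 192, 216 and 263 CPM in microglia. The log2 fold change was -1.08 in HSC-derived and 0.45 in monocyte-derived cells, with a difference of -1.53 (SE 0.30, adjusted p = 0.0311). An exon of Gngt2 overlaps one of Abi3, a gene on the other strand, and the strand setting of the counting is not given in the sources used here, so the gene of origin of its reads is uncertain. The same limit touches other reported genes, among them P2ry12 (with Med12l), Gas6 (Tmem255b), Pltp (Ctsa), Tap1 (Psmb9), Cd180 (Mast4), Folr2 (Gm10602) and Cx3cr1 (Gm33858). More are Tmem176a (Tmem176b), F13a1 (Gm30489), Hspa1a (Gm20481), Egfl7 (Agpat2), Fn1 (Apol7d), Fcgr2b (Gm38204), Lyn (Gm26857) and Cd9 (Gm26728). Further ones are Slco2b1 (Gm15635), Gpi1 (Gm26762), H2-T22 (A930015D03Rik), Psmb8 (Gm20496), Tnfsf9 (Gm11110) and Nnat (Gm23134). Ctsd overlaps Gm49369 on the same strand. None of the 6 differences was called without leptomeningeal replicate 2 (0 by edgeR, adjusted p = 0.17 for H2-Eb1), and 40 genes were called without leptomeningeal replicate 1.

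**Figure D5:**
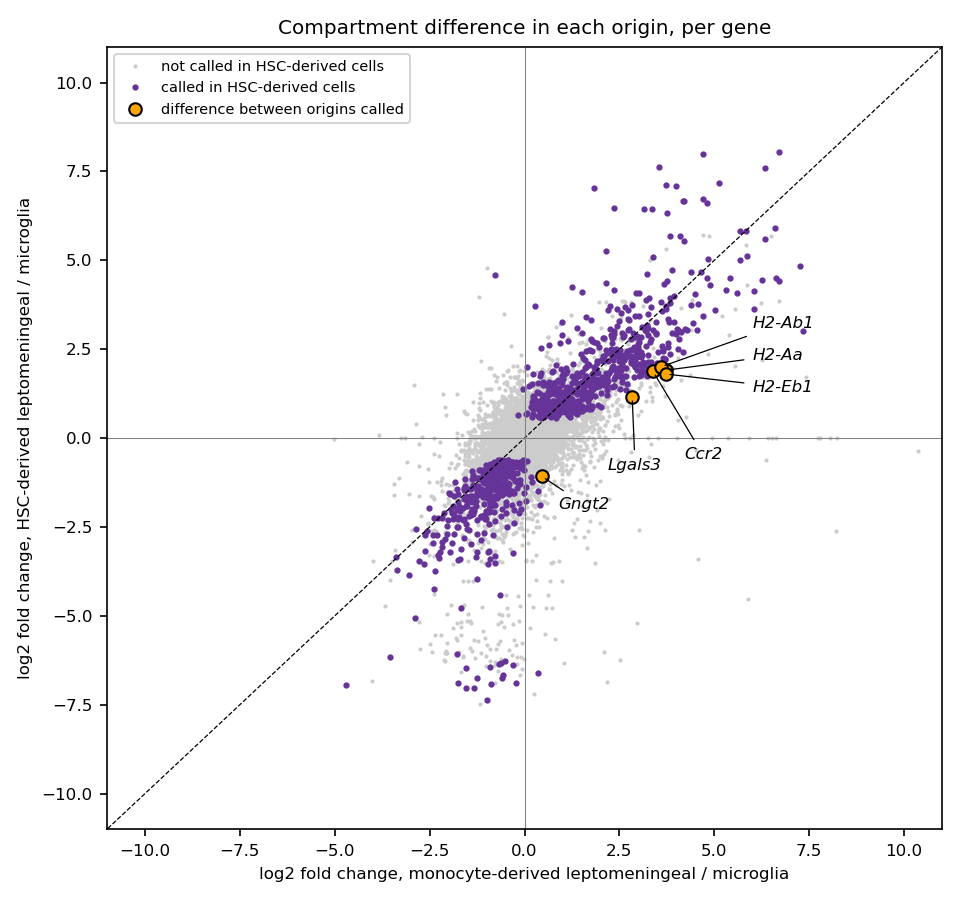
Each tested gene by its log2 fold change of leptomeningeal macrophages over microglia in monocyte-derived cells (horizontal) and in HSC-derived cells (vertical); the dashed line marks equal values. Purple points are the 1030 genes called in HSC-derived cells, and the 6 orange points, all below the line, are the genes whose difference between origins was called.

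The share of genes called differed with their level. Among genes with a mean under 10 CPM 3.17% were called, against 37.6% of those over 1000 CPM, and the median standard error of the log2 fold change was 0.899 below 10 CPM, 0.217 between 200 and 1000 CPM and 0.24 above 1000 CPM.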

How the data were processed

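RNA of sorted cells was measured by bulk MARS-seq in 18 libraries of 5 groups. The authors deposited a table of raw UMI counts per gene, per the file headers, made on genome build mm10 per the submitters' processing notes; aligner, counter and strand setting were not given in the sources used here. Of 20 columns of raw counts 2 matched no sample and were not used. Genes were filtered with filterByExpr, scaled by TMM and fitted in 1 model of all 18 libraries with edgeR 4.0.16 (robust quasi-likelihood test, R 4.3.3), and p-values were adjusted over every gene tested (Benjamini-Hochberg, threshold 0.05). There were 3 contrasts: leptomeningeal macrophages minus microglia in HSC-derived cells, the same in monocyte-derived cells, and the difference of both. Alternatives used DESeq2 1.42.0, limma-voom (limma 3.58.1), other scalings and filters, a term for the 3 shallow libraries, thinned counts, and libraries left out. The code was tested on simulated data.

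The members and the 48 gene lists were chosen with earlier results of these data known. Named genes were the 10 highest and 10 lowest called genes with no overlap and a mean of 50 CPM or more in whichever group was higher, up to 3 called genes of each macrophage list and 2 of each other list with the smallest p, a fixed set of markers, and up to 5 genes in each direction for the difference between origins. Ptgds, Ccl8, Nfkbia, Atf3, Plbd1, Spi1, Tgfbr2, Col1a2, Mlph, Nav3 and the members given only as at 0 were chosen after their values were seen. Promoter windows and start sites are from RefSeq (GRCm38.p6), and 83 of 122 named genes had a window. Count ratios carry 95% exact intervals, which cover counting error only, and a group at 0 was set to 3 counts. Gene positions are those of the mm10 annotation. A few genes that the rule names are not reported here.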

Additional observations from a re-analysis of the deposited data

Results flagged for a closer look

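In HSC microglia, 165 sets of 4 values (117 named genes and 48 list sums) were checked for a single library far from the others, and 11 had one; chance gives about 1 in 20. Replicate 2 alone held counts of Mgp (1.374 CPM) and of Slc7a11 (2.748 CPM). Replicate 3 was high in Srebf2 (56.36 CPM), and in the summed cell cycle genes (461.1 CPM) and endothelial genes (56.36 CPM). Replicate 4 was high in F13a1 (137 CPM), Gas6 (160.5 CPM) and Ctse (246.6 CPM), and low in Ccr2 (86.1 CPM). Replicate 2 was low in the summed Toll-like receptor genes (5368 CPM), and replicate 1 held erythroid genes at 947.9 CPM, against 50.88 to 56.36 CPM in the other 3.

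The compartment difference was smaller or opposite in HSC-derived cells than in monocyte-derived cells for 6 genes, by the test of the difference itself. The log2 differences, HSC-derived minus monocyte-derived, were -1.92 for H2-Eb1, -1.51 for Ccr2, -1.81 for H2-Aa, -1.53 for Gngt2, -1.67 for Lgals3 and -1.59 for H2-Ab1. Of these, H2-Eb1, Ccr2, H2-Aa and H2-Ab1 belong to lists of genes known from bone marrow-derived macrophages, antigen presentation or monocytes.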

How the results depend on the processing

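For HSC-derived cells 1030 genes were called, against 205 when the fit held only the HSC-derived groups, 526 with libraries thinned to 1 depth, 273 without the 3 deeper HSC-derived libraries and 366 to 1242 with 1 library left out; 268 of the 366 were among the 1030. DESeq2 called 957, limma-voom 846, and both other scalings 1035 and 1014. The 3736 calls in monocyte-derived cells became 1091 with thinned libraries and 3137 to 4024 with 1 library left out. The 6 differences between origins became 2 at a higher count minimum, 49 with DESeq2, 1 with fewer groups, 169 without the 3 deeper libraries, 75 with a term for shallow libraries, 49 with that term and the replicate block, 2 with thinned libraries and 0 to 40 with 1 library left out. The replicate block alone gave 1034, 3544 and 4 calls. Same-numbered libraries were compared by their deviations from the group means. Of 20 such pairs 1 correlated above 0.1, and 8 correlated best with their own number. Between the HSC-derived groups the correlation was 0.323 for number 1 and -0.321 for number 2. The 2 leptomeningeal deviations there mirror each other, so these correlations cannot decide whether replicate numbers pair the samples. Srebf2 turned to -0.14 without the 3 deeper libraries. Nhlh2, not called at -0.37, lay between -16.3 and 0.56 with 1 library left out (0.02 and 0.29 without microglia replicates 3 and 4), and became 5.56 with the replicate block and 3.43 with block and shallow term. Ttr, not called at -0.10, lay between -3.82 and 0.98 with 1 library left out (0.10 without microglia replicate 4, 0.51 without leptomeningeal replicate 2), and became 1.02 with limma-voom and 0.35 without the shallow libraries. The cause was not tested. Of 118 called genes that are named, 49 lost their call without leptomeningeal replicate 1 and 7 without replicate 2. With 154727 counts in that replicate, genes under 23.1 CPM rest there on under 3 counts. With only the HSC-derived groups in the fit, 40 of the 109 named called genes tested there lost their call. Apod, Nnat, Ly6c2, Cd209a, Sall1 and Apoe were among these 40.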
